A study of Mus musculus with 2 samples.

Results

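The proteasome genes described here are the 10 genes of its exchangeable catalytic subunits and the factors that work with them: the immuno catalytic subunits Psmb8, Psmb9 and Psmb10, their constitutive counterparts Psmb5, Psmb6 and Psmb7, the activator subunits Psme1, Psme2 and Psme3, and the maturation factor Pomp. They were taken by gene symbol from both deposited tables, and all 10 were found among 23444 gene symbols, of which 11288 had at least 1 FPKM (fragments per kilobase and depth of sequencing, a level that allows for transcript length) in either library. The study profiled RNA of cultured bone marrow derived macrophages of the mouse strain FVB, with 1 library labelled RON TK-/- (RON deficient) and 1 labelled WT (RON proficient). Both groups carry the label of treatment with recombinant interleukin-4, a cytokine that drives alternative activation of macrophages, at 10 ng/mL for 72 hours. RON is the receptor tyrosine kinase encoded by Mst1r, and the age, sex and number of the animals behind each library are not given by the labels. They are called the RON TK-/- library and the WT library after their labels. Each group holds a single library and nothing measures the spread between cultures, so no test was made, and each difference below is one between these 2 libraries and not between genotypes.

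The proteasome is the barrel-shaped protease that degrades ubiquitin-tagged proteins, and its 20S core holds its active sites on 3 kinds of beta subunit. In cells that receive interferon gamma, and in many cells of the blood lineage, newly built cores take up Psmb8 in place of Psmb5, Psmb9 in place of Psmb6 and Psmb10 in place of Psmb7, which makes the immunoproteasome and alters which peptides reach MHC class I. Psme1 and Psme2 together form the interferon-inducible activator ring PA28 alpha-beta, Psme3 forms the mainly nuclear ring PA28 gamma, and Pomp is the chaperone that guides assembly of both kinds of core.

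Facts of the whole libraries bear on every direction given here. The targeted gene Mst1r was listed at 0 FPKM in both libraries, so it checked neither label. The library labelled RON TK-/- had 5041 FPKM of the interleukin-4 response gene Arg1 and 0.231 FPKM of the interferon-induced chemokine gene Cxcl10, while the WT library had 1.005 FPKM of Arg1 and 4711 FPKM of Cxcl10. The profile of the WT library thus went against its treatment label, and directions rest on the labels as deposited. The deposited coverage implied about 67100000 reads for the RON TK-/- library and about 59800000 for the WT library. On the scale of FPKM + 1, RON TK-/- over WT, the log2 ratio had a median of 0.57 over the 11288 detected genes and of 0.29 over the 2365 genes that reached 20 FPKM in both libraries, so a ratio of 0 lies below the middle of the data. Of 8 macrophage marker genes all 8 were detected in both libraries, summing to 6309 FPKM in the RON TK-/- library and 5531 FPKM in the WT library. Most of each sum was Lyz2, with 4651 (RON TK-/-) and 3317 (WT) FPKM. By more than 2-fold, Cd14, Fcgr1 and Mertk were lower and Itgam was higher in the RON TK-/- library.

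The promoters of Psmb8, Psmb9, Psme2 and Psme1 are shown here because these members had the lowest log2 ratios, and that of Psmb5 as the constitutive counterpart of Psmb8. Each runs from 250 bases before to 50 bases after the RefSeq transcript start on the GRCm38.p6 assembly, 5′ to 3′ on the strand of the gene, and promoters were found for 9 of the 10 members. Capitals mark matches, on either strand, to GAAA, 2 bases of any kind and GAAA (the core of the interferon-stimulated response element), TTCNNNGAA (the gamma-activated site) or TGANNNNGC (the core of the antioxidant response element). The Psmb8 promoter is chr17:34197945-34198244 on the plus strand, Psmb9 is chr17:34187281-34187580 on the minus strand, Psme2 (start of the shorter locus) is chr14:55590972-55591271 on the minus strand, Psme1 is chr14:55578244-55578543 on the plus strand and Psmb5 is chr14:54617946-54618245 on the minus strand.
Psmb8: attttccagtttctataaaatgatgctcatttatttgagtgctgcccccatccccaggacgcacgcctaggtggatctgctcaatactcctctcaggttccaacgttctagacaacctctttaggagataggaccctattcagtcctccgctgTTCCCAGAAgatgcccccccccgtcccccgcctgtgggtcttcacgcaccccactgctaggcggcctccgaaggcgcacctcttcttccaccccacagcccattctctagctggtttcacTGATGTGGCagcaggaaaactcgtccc
Psmb9: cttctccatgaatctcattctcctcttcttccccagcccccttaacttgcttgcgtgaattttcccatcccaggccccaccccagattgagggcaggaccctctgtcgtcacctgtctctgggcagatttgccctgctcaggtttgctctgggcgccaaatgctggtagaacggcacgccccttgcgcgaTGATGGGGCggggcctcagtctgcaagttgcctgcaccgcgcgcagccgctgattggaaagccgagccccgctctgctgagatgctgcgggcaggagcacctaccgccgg
Psme2: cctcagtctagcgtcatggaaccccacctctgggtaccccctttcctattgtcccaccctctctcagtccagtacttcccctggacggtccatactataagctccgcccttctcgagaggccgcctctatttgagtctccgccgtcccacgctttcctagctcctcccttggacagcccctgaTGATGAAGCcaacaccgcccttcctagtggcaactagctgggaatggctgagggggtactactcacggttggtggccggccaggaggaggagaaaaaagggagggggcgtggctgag
Psme1: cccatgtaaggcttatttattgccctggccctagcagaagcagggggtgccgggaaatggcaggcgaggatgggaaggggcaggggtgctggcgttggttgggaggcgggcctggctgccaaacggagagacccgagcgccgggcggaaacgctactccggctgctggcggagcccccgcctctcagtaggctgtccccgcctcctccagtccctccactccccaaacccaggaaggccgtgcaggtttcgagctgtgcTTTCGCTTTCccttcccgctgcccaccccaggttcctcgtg
Psmb5: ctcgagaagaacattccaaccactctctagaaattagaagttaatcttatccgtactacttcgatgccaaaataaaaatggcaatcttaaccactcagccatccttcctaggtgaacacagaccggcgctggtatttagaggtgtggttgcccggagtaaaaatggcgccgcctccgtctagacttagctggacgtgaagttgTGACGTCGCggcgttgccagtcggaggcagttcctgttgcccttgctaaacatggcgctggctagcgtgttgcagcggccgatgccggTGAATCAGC

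In these windows the gamma-activated site was found once among the members, as TTCCCAGAA in Psmb8 with its first base at -97 from the start, and 8.30% of 32851 mouse promoters of the same length hold a match. The response element core was found once, as TTTCGCTTTC in Psme1, with its first base at 10 in the transcript, where 3.44% of promoters hold one. The antioxidant core was found in Psmb5, Psmb6, Psmb8, Psmb9 and Psme2, but 41.3% of promoters hold it. One more motif, GGGA, 4 bases of any kind and CC (a form bound by NF-kB), had no match in the windows of the 9 members, against 20.7% of promoters. No 2 of the motif matches in a member's window overlapped each other. The window of Psmb9 shares 275 bases with that of Tap1 on the opposite strand, since the starts of these 2 genes lie 226 bases apart. A match of letters is a description and shows no binding, and a window without a match says only that these letters are not in it.

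Of the 3 interferon-inducible catalytic subunits, Psmb8 and Psmb9 were lower in the RON TK-/- library by more than 2-fold, and Psmb10 by much less. Psmb8, which carries the chymotrypsin-like site of the immunoproteasome, had 66.3 FPKM in the RON TK-/- library and 171 FPKM in the WT library, a log2 ratio of -1.35. Psmb9, the immuno counterpart of the caspase-like subunit, had 20.6 FPKM in the RON TK-/- library and 70.8 FPKM in the WT library, with a log2 ratio of -1.74, the lowest of the 10 members. Psmb9 was thus the scarcer of these 2 mRNAs in both libraries. Psmb10, the trypsin-like immuno subunit, had 56.0 FPKM in the RON TK-/- library and 69.4 FPKM in the WT library, a log2 ratio of -0.30. The 3 immuno subunits therefore did not differ by a common factor, although all 3 pointed the same way. Relative to the median of detected genes their log2 ratios were -1.92, -2.30 and -0.87 in the order Psmb8, Psmb9, Psmb10. In these bulk samples fewer cells that express a gene and less RNA per cell cannot be told apart.

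The constitutive catalytic subunits lay within 2-fold and went in both directions. Psmb5, the chymotrypsin-like subunit that Psmb8 replaces, had 93.6 FPKM in the RON TK-/- library and 60.1 FPKM in the WT library, a log2 ratio of 0.63. This was the highest ratio of the 10 members, and it lay 0.06 above the median of all detected genes. Psmb6, the caspase-like subunit that Psmb9 replaces, had 182 FPKM in the RON TK-/- library and 240 FPKM in the WT library (log2 ratio -0.40). Relative to the median of detected genes Psmb6 stood at -0.97, just within 2-fold. On both scales its log2 ratio was below that of the immuno subunit Psmb10 (-0.30 and -0.87). Psmb7, the trypsin-like subunit that Psmb10 replaces, had 107 FPKM in the RON TK-/- library and 91.6 FPKM in the WT library (log2 ratio 0.22), and its ratio was -0.35 once rescaled to the median of detected genes, so its sign depended on the scaling. The 3 constitutive subunits summed to 382 FPKM in the RON TK-/- library and 392 FPKM in the WT library. The 3 immuno subunits summed to 143 FPKM in the RON TK-/- library and 311 FPKM in the WT library, so the sum was 2.18-fold lower in the RON TK-/- library.

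**Figure D1:**
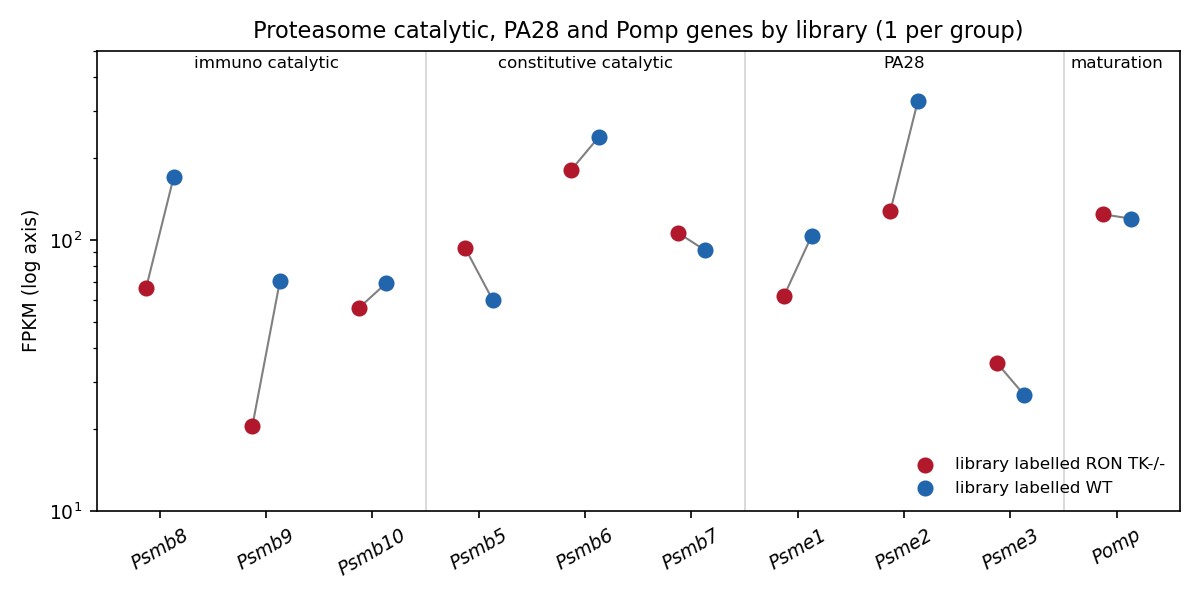
FPKM of the 10 proteasome genes on a log axis, with 1 point per library (red, RON TK-/-; blue, WT) joined by a line, in the order immuno catalytic, constitutive catalytic, PA28 and maturation factor. Psmb8, Psmb9 and Psme2 have the widest gaps, each with the RON TK-/- point lower, while Psmb5, Psmb7, Psme3 and Pomp have the RON TK-/- point higher as deposited, of which Psmb7, Psme3 and Pomp change sign when rescaled to the median of detected genes.

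The ratio of an immuno subunit to the subunit it replaces compares 2 genes within 1 library, per transcript length, and does not depend on how the libraries are scaled against each other. Psmb8 over Psmb5 was 0.709 in the RON TK-/- library and 2.84 in the WT library, so the order of the 2 mRNAs was opposite in the 2 libraries. Psmb9 over Psmb6 was 0.113 in the RON TK-/- library and 0.294 in the WT library, and Psmb6 was the more abundant mRNA in both. Psmb10 over Psmb7 was 0.526 in the RON TK-/- library and 0.758 in the WT library, again with the constitutive mRNA ahead in both. Every pair thus held less of the immuno partner in the RON TK-/- library, by very different amounts.

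Expressed as a share of the pair, Psmb8 made up 41.5% of Psmb8 and Psmb5 FPKM in the RON TK-/- library and 74.0% in the WT library. Psmb9 made up 10.2% of its pair in the RON TK-/- library and 22.7% in the WT library, and Psmb10 made up 34.5% in the RON TK-/- library and 43.1% in the WT library. The Psmb8 to Psmb5 ratio was 4.01-fold lower in the RON TK-/- library, with a 95% interval of 3.79 to 4.23. The Psmb9 to Psmb6 ratio was 2.60-fold lower (2.42 to 2.80) and the Psmb10 to Psmb7 ratio 1.44-fold lower (1.37 to 1.52). These intervals come from reads estimated from the coverage, 1060 to 17638 per member and library, and cover counting error only, not the spread between cultures. As deposited, the shift of Psmb8 and Psmb5 came from both genes, with Psmb8 lower and Psmb5 higher in the RON TK-/- library. Relative to the median of detected genes Psmb8 stood at -1.92 and Psmb5 at 0.06, so nearly all of it lay on Psmb8 at that scaling. For Psmb9 and Psmb6 both genes were lower in the RON TK-/- library, Psmb9 by more. Shares of mRNA are not shares of assembled proteasomes, which were not measured.

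**Figure D2:**
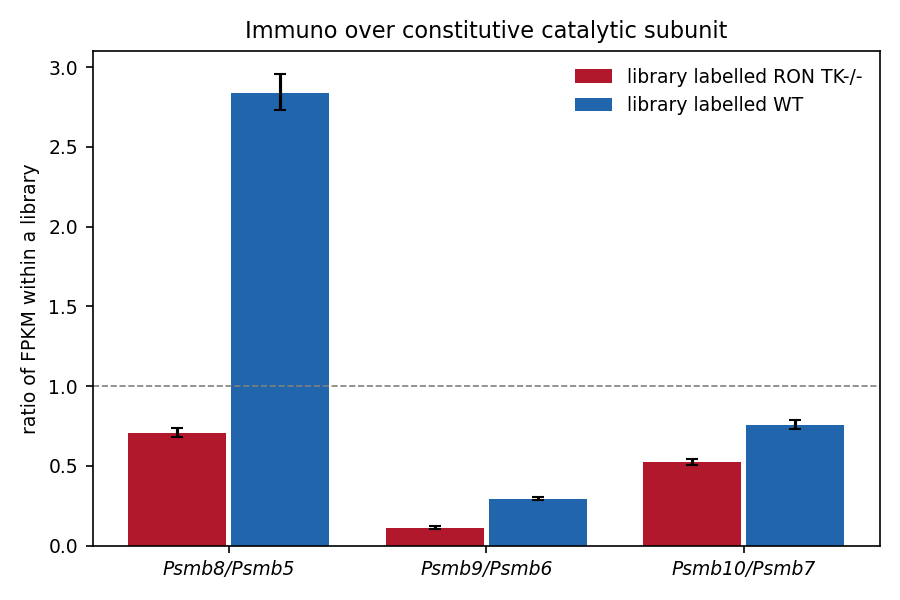
Ratio of FPKM of each immuno catalytic subunit to the constitutive subunit it replaces, within each library (red, RON TK-/-, left; blue, WT, right). Error bars are 95% exact intervals from estimated reads (counting error only) and the dashed line marks equal levels, which is exceeded by Psmb8/Psmb5 in the WT library at 2.84 and by no other bar.

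Of the activator genes, Psme2 stood with Psmb8. Psme2, the beta subunit of PA28, had 128 FPKM in the RON TK-/- library and 327 FPKM in the WT library, a log2 ratio of -1.35, and it was the most abundant of the 10 members in the WT library. Psme1, the alpha subunit of the same ring, had 62.1 FPKM in the RON TK-/- library and 103 FPKM in the WT library, a log2 ratio of -0.73 that was past 2-fold (-1.29) relative to the median of detected genes. The 2 partners of 1 ring therefore did not differ equally, and Psme2 over Psme1 was 2.05 in the RON TK-/- library and 3.16 in the WT library. Psme3, which forms the separate PA28 gamma ring and is not an interferon-inducible gene, had 35.3 FPKM in the RON TK-/- library and 26.8 FPKM in the WT library (log2 ratio 0.38, but -0.18 relative to the median of detected genes).

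Psme2 is also the member whose reads are hardest to assign. The files list a second gene, Psme2b on chromosome 11, with 2.30 FPKM in the RON TK-/- library and 12.3 FPKM in the WT library. In the GENCODE transcripts of the GRCm38 build, Psme2 and Psme2b were 98.8% identical over 803 aligned bases, and 541 of 913 stretches of 50 bases in Psme2, the length of 1 read, also occur in Psme2b. Reads could have been split between the 2 copies, so each value alone is uncertain. Summed, they had 130 FPKM in the RON TK-/- library and 339 FPKM in the WT library, a log2 ratio of -1.38. The second listed transcript of Psme2 had 1.39 FPKM in the RON TK-/- library and 0.00045 FPKM in the WT library, so nearly all Psme2 signal lay on 1 row.

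The other members were checked for copies in the same way. The exchanged pairs were 64.9% (Psmb8 and Psmb5), 63.0% (Psmb9 and Psmb6) and 60.2% (Psmb10 and Psmb7) identical over their aligned transcripts, and the longest run they share was 18, 11 and 15 bases in that order, so no 50-base read fits both partners exactly. Psmb5 shares 420 of its 850 read-length stretches with the processed pseudogene Gm3375, which is not among the gene symbols of the files, and whether reads were lost or gained there cannot be seen. Psme1 shares 108 of 1063 stretches with the pseudogene Gm7776, and Psmb8, Psmb9, Psmb10, Psmb7 and Psme3 share none with a transcript of another gene. Mir686 lies within Psmb5 (109 bases) and had under 0.001 FPKM in both libraries. Psme1 overlaps Emc9 on the opposite strand by 4 bases, and no other detected gene overlaps a member.

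Pomp, the maturation factor, hardly differed, with 124 FPKM in the RON TK-/- library and 120 FPKM in the WT library. Its log2 ratio was 0.05 as deposited and -0.51 relative to the median of detected genes. By level, the order of the members in the RON TK-/- library was Psmb6, Psme2, Pomp, Psmb7, Psmb5, Psmb8, Psme1, Psmb10, Psme3 and Psmb9. In the WT library it was Psme2, Psmb6, Psmb8, Pomp, Psme1, Psmb7, Psmb9, Psmb10, Psmb5 and Psme3. Psmb9 ranked 3367 of 11288 detected genes in the RON TK-/- library and 1012 in the WT library, and Psmb8 ranked 1043 in the RON TK-/- library and 454 in the WT library. With 1 library each, no spread tells which neighbours in these orders differ.

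In all, 3 of the 10 members (Psmb8, Psmb9 and Psme2) were at least 2-fold lower in the RON TK-/- library and 0 at least 2-fold higher, while 8.71% of detected genes were lower and 25.6% higher by that fold. Relative to the median of detected genes 4 of 10 were lower, Psme1 being added, and 0 higher, against 14.4% of detected genes lower and 8.38% higher. Of all detected genes, 4.93% had a lower log2 ratio than Psmb9, 6.64% than Psmb8 and 6.65% than Psme2. Among the 2365 genes that reached 20 FPKM in both libraries, 84 others had a ratio at or below that of Psmb9.

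The rest of the proteasome gave a frame for these values. None of the 11 other 20S core genes was 2-fold apart as deposited, and their log2 ratios ran from -0.59 to 0.53 with a median of 0.07. By the same fold, 8.71% of all detected genes were lower and 25.6% higher. Relative to the median of detected genes, the median of these 11 was -0.49, so they lay below the typical detected gene. Among the alpha subunits, which form the outer rings of the core, Psma6 had 96.3 FPKM in the RON TK-/- library and 145 FPKM in the WT library, and Psma5 had 62.8 (RON TK-/-) and 77.4 (WT) FPKM. Psma1 had 88.0 FPKM in the RON TK-/- library and 60.5 FPKM in the WT library, and Psma4 had 109 (RON TK-/-) and 85.6 (WT) FPKM. The structural beta subunits Psmb1, Psmb2, Psmb3 and Psmb4, which carry no active site, had log2 ratios of 0.33, 0.07, 0.46 and 0.10. Rescaled to the median of detected genes, Psma6 alone of these 11 was past 2-fold (-1.15), beside 14.4% of detected genes lower and 8.38% higher. Set against the median of the 11 genes in the same library, Psmb8 stood at 0.669 in the RON TK-/- library and 1.92 in the WT library, and Psmb9 at 0.207 (RON TK-/-) and 0.798 (WT). Psmb5 stood at 0.943 (RON TK-/-) and 0.678 (WT), and Psmb10 at 0.564 (RON TK-/-) and 0.782 (WT).

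The 19S regulatory particle, which binds ubiquitin chains and feeds unfolded proteins to the core, had 0 of 19 genes 2-fold apart as deposited. Its median log2 ratio was 0.23, or -0.33 relative to the median of detected genes. Of all detected genes 8.71% were lower and 25.6% higher by that fold. Its ATPase genes had log2 ratios from 0.09 to 0.78, with Psmc1 (69.7 FPKM in the RON TK-/- library and 40.2 FPKM in the WT library) highest, followed by Psmc6 (0.57), Psmc2 (0.32) and Psmc5 (0.30). Of the other subunits Psmd8 was lowest, with 125 FPKM in the RON TK-/- library and 216 FPKM in the WT library (log2 ratio -0.78), and it was past 2-fold only relative to the median of detected genes (-1.35). The deubiquitinase subunit Psmd14 had a log2 ratio of 0.50, Psmd13 of 0.50 and Psmd12 of 0.45.

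Assembly chaperones, which help to build the core and the 19S base, differed among themselves. Of 8 listed, 7 were found and detected, and 2 were at least 2-fold higher and 0 lower in the RON TK-/- library, with a median log2 ratio of 0.69. These counts are near the shares of all detected genes, 25.6% higher and 8.71% lower, and relative to the median of detected genes 1 was higher and 1 lower. Psmg3 had 17.7 FPKM in the RON TK-/- library and 5.24 FPKM in the WT library, and Psmg1 had 14.7 (RON TK-/-) and 6.77 (WT) FPKM. Both belong to chaperone pairs that help form the alpha ring. Psmd5 and Psmd9, chaperones of the 19S base, had log2 ratios of 0.74 and 0.69. Psmd10, also a chaperone of the base, had 16.7 FPKM in the RON TK-/- library and 25.4 FPKM in the WT library, a log2 ratio of -0.57 that was past 2-fold (-1.14) relative to the median of detected genes. Psme4, which encodes the activator PA200, had 22.2 FPKM in the RON TK-/- library and 9.86 FPKM in the WT library, and the inhibitor gene Psmf1 had 6.21 (RON TK-/-) and 6.15 (WT) FPKM. Relative to the median of detected genes Psmg3 stayed past 2-fold (1.02) and neither Psmg1 (0.45) nor Psme4 (0.53) did. The proteasome deubiquitinases Usp14 and Uchl5 had log2 ratios of 0.76 and 0.75. The thymus-restricted catalytic subunit Psmb11 was listed at 0 in both libraries, and Psma8, a subunit of the testis, had 1.86 FPKM in the RON TK-/- library and 0.662 FPKM in the WT library.

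**Figure D3:**
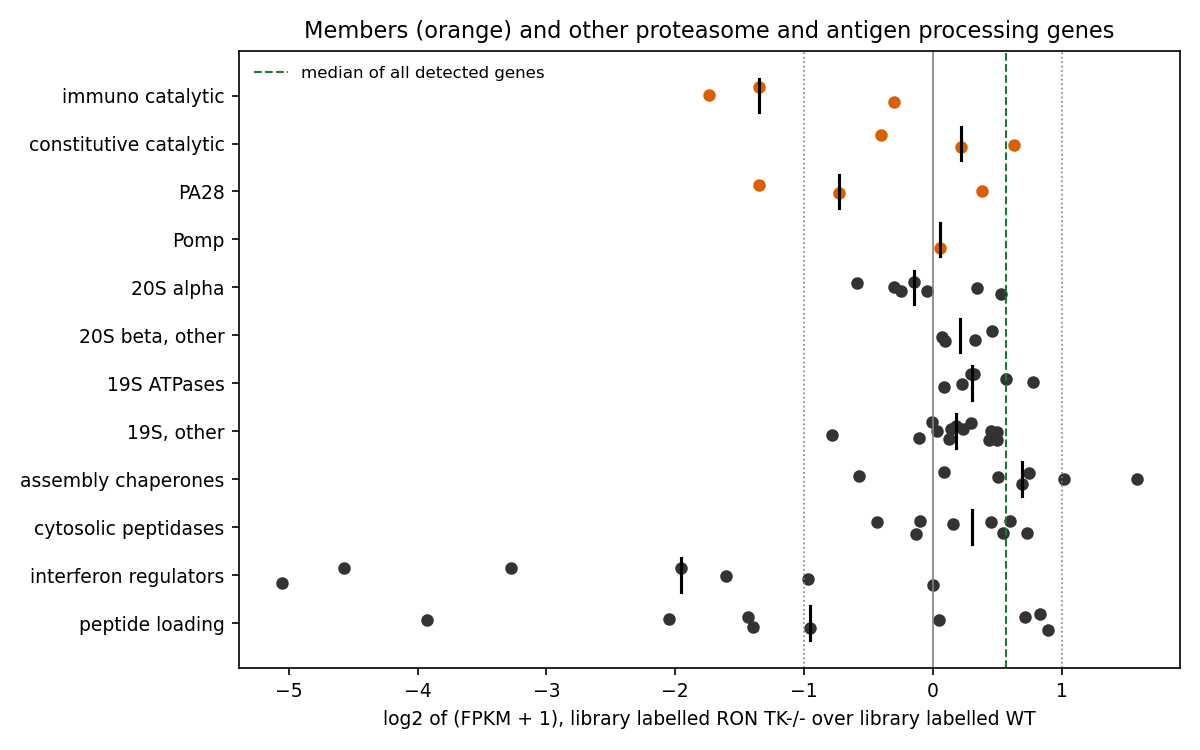
Log2 ratio of FPKM + 1, RON TK-/- library over WT library, for the 10 members (orange) and detected genes of 8 related lists (black), with 1 row per list, a black bar at each list's median, dotted lines at 2-fold and a dashed line at the median of all detected genes (0.57). Psmb8, Psmb9 and Psme2 lie left of every gene of the 20S and 19S rows and within the range of the interferon regulator and peptide loading rows.

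Several regulators known to act on these genes were further apart than any member. Irf1, an interferon-induced transcription factor required for full induction of the immuno subunits in mice, had 21.1 FPKM in the RON TK-/- library and 733 FPKM in the WT library. Irf8 had 24.96 (RON TK-/-) and 618 (WT) FPKM, and Nlrc5, the class I transactivator, 3.20 (RON TK-/-) and 39.8 (WT) FPKM. Stat2, with 16.4 (RON TK-/-) and 51.8 (WT) FPKM, had a log2 ratio of -1.60, between those of Psmb9 and Psmb8. Irf2 had a log2 ratio of 0.00. Irf9 had a log2 ratio of -0.97, just within 2-fold, but was 2.03-fold lower in the RON TK-/- library without the pseudocount and past 2-fold (-1.53) relative to the median of detected genes. Among regulators of the constitutive genes, Nfe2l1, the factor that raises proteasome genes when proteasome activity is short, had 73.9 FPKM in the RON TK-/- library and 63.3 FPKM in the WT library. Ddi2, the protease that activates it, had 15.5 FPKM in the RON TK-/- library and 5.31 FPKM in the WT library, Stat3 had 35.7 (RON TK-/-) and 97.5 (WT) FPKM, and Nfe2l2 had 63.1 (RON TK-/-) and 102 (WT) FPKM. The part of these regulators in the members' values was not tested.

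Genes before and after the proteasome in antigen processing were set beside it. For comparison with each count below, 8.71% of all detected genes were lower and 25.6% higher by 2-fold as deposited. Relative to the median of detected genes these shares were 14.4% and 8.38%. Of 9 peptide loading genes 4 were lower by 2-fold or more and 0 higher (5 and 0 relative to the median of detected genes). The transporter genes Tap1 and Tap2 had log2 ratios of -3.93 and -2.05, Tapbp -1.44 and Tapbpl -1.39, while the chaperone gene Calr had 0.89. None of the 8 cytosolic peptidase genes was 2-fold apart on either scale. As deposited the most distant were Thop1 (0.73), Npepps (0.60), Prep (0.55) and Nrd1 (0.45). Relative to the median of detected genes the most distant was Tpp2 (-0.998), close to 2-fold lower. Of 16 ubiquitin and delivery genes, Ubd was the 1 that was 2-fold apart as deposited, and Ubb (log2 ratio -0.49) joined it relative to the median of detected genes (-1.06). Ubd, an interferon-inducible ubiquitin-like modifier that sends proteins to the proteasome, was listed at 0 in the RON TK-/- library and had 165 FPKM in the WT library. As deposited, the others furthest from 0 were the shuttle genes Ubqln4 (0.93) and Ubqln2 (0.69) and the ubiquitin-binding Zfand5 (0.85).

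Psmb8 and Psmb9 lie together on chromosome 17 of the mm10 build, in the class II part of the MHC, with Tap1 between them and Tap2 beyond Psmb8. Psmb9 spans 34182099 to 34187330, Tap1 34187556 to 34197225, Psmb8 34198195 to 34201454 and Tap2 34204479 to 34216321. All 4 were at least 2-fold lower in the RON TK-/- library. Tap1, whose start lies 226 bases from that of Psmb9, had 11.5 FPKM in the RON TK-/- library and 190 FPKM in the WT library, a far wider gap than that of Psmb9. Tap2 had 20.3 FPKM in the RON TK-/- library and 87.2 FPKM in the WT library. The class II peptide exchange genes, on the side of Psmb9 away from Tap1, did not share the low values. H2-DMb1 had 8.80 (RON TK-/-) and 6.46 (WT) FPKM. H2-DMb2 had 10.9 (RON TK-/-) and 7.93 (WT) FPKM, and H2-DMa had 8.56 (RON TK-/-) and 4.80 (WT) FPKM.

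Psme1 and Psme2 lie on chromosome 14, at 55578494 to 55581527 and 55587440 to 55591101, with Emc9 between them. Emc9, a subunit of a membrane insertion complex, had 13.3 FPKM in the RON TK-/- library and 4.33 FPKM in the WT library, the opposite direction from both. Rnf31, a subunit of the linear ubiquitin ligase whose locus begins 689 bases from that of Psme2, had 6.45 FPKM in the RON TK-/- library and 20.2 FPKM in the WT library, and Irf9 next to it had 12.2 (RON TK-/-) and 24.7 (WT) FPKM. Pck2, 37423 bases away on the other side, had 19.02 FPKM in the RON TK-/- library and 2.18 FPKM in the WT library, and Dcaf11 (0.71), Ipo4 (0.63) and Tm9sf1 (0.20) had log2 ratios within 2-fold. The low values were thus not shared by every gene of the stretch.

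**Figure D4:**
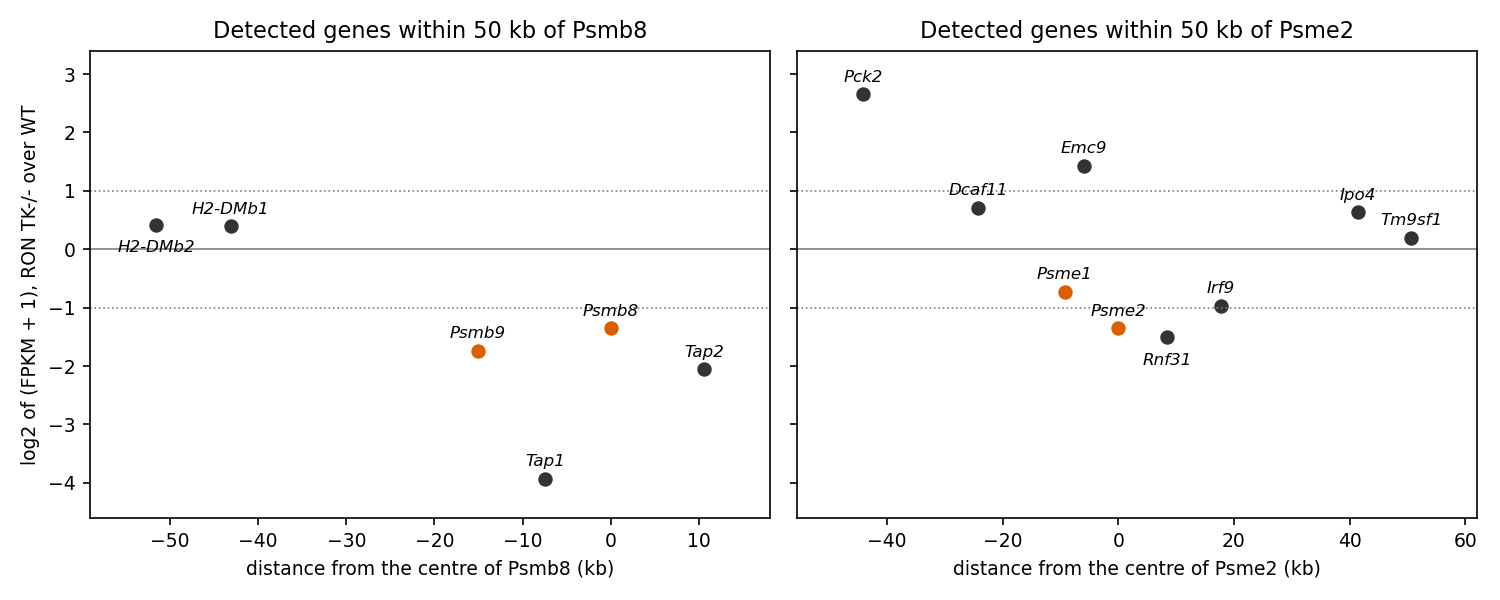
Log2 ratio of FPKM + 1, RON TK-/- library over WT library, of detected genes within 50 kb of Psmb8 (left) and Psme2 (right), against distance between gene centres in kb, with members in orange and dotted lines at 2-fold. Tap1, Psmb9, Psmb8 and Tap2 form a run of low values, whereas Emc9 at 1.43 lies between Psme1 and Psme2.

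The other members have no further member within 50 kb. Psmb5 is at 54614120 to 54617995 on chromosome 14, Psmb6 at 70525357 to 70527858 and Psme3 at 101316251 to 101323530 on chromosome 11, Psmb7 at 38588046 to 38643906 on chromosome 2, Psmb10 at 105935728 to 105938392 on chromosome 8 and Pomp at 147860628 to 147875778 on chromosome 5. Over all 10 members, 26 detected genes that are no member lie within 50 kb, of which 3 (Tap1, Tap2 and Rnf31) were lower by 2-fold or more in the RON TK-/- library and 6 were higher by as much. Both counts are near the shares of all detected genes, 8.71% lower and 25.6% higher. Relative to the median of detected genes the balance was the opposite, with 5 lower (Irf9 and Dpep2 being added) and 2 higher (Pck2 and Slc46a3), beside 14.4% and 8.38% of all detected genes. The 6 as deposited were Pck2 and Emc9, and, near members that were not 2-fold apart, Slc46a3 (1.97) by Pomp, Ajuba (1.42) by Psmb5, Pskh1 (1.33) by Psmb10 and Mink1 (1.21) by Psmb6. Other detected neighbours within 2-fold as deposited were Edc4 (0.58), Slc12a4 (0.18) and Dpep2 (-0.50) by Psmb10, Acin1 (0.72) and 4931414P19Rik (0.69) by Psmb5, Pld2 (-0.38) by Psmb6, Nek6 (0.74) by Psmb7, and Coa3 (0.58), Becn1 (0.07) and Aoc3 (0.12) by Psme3.

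The genes whose pair of values lay nearest to a member's, by distance over the 2 libraries on the log2 scale of FPKM + 1, were Thbs1, Ctsc and Ms4a6c for Psmb8, Odc1, Rasa4 and Hp for Psmb9 and Spi1, Id2 and Ninj1 for Psme2. They were Tceb1, Etf1 and Naa20 for Psmb10, Nfe2l2, Eif1a and Tgoln1 for Psme1, Ptbp1, Taf10 and Calm3 for Psmb5, Npy, Pmp22 and Pcna for Psmb6, Erh, Prkar1a and Romo1 for Psmb7, Srebf2, Sf1 and Cks1b for Psme3 and Nedd8 and Surf4 for Pomp. Likeness over 2 libraries is weak, since 15 genes lay within 0.5 of Psmb8 and 565 within 0.5 of Psme3.

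Markers of other cell types were read beside the members. T and NK cell markers summed to 2.12 FPKM in the RON TK-/- library and 0 in the WT library, with Cd3d, Cd3e, Cd3g and Ncr1 at 0 in both and Cd2 the detected one of 6. B cell markers summed to 0.0495 (RON TK-/-) and 0.228 (WT) FPKM with 0 of 5 detected, and dendritic cell markers summed to 0.546 (RON TK-/-) and 2.24 (WT) FPKM with 0 of 5 detected and Siglech at 0 in both. Of 6 granulocyte and mast cell markers found, S100a8 was detected (1.75 FPKM in RON TK-/-, 1.44 in WT) and Elane, Mpo, Prg2, Mcpt4 and Cpa3 were at 0 in both. Stromal and erythroid markers were detected for 4 of 7, summing to 448 FPKM in the RON TK-/- library and 253 FPKM in the WT library, with Col1a1 at 250 (RON TK-/-) and 195 (WT) FPKM, Col3a1 at 171 (RON TK-/-) and 48.5 (WT) FPKM, Pdgfra at 24.3 (RON TK-/-) and 8.93 (WT) FPKM and Pecam1 at 2.53 (RON TK-/-) and 0.527 (WT) FPKM, and with Hbb-b1 at 0 in both. The part of stromal RNA in the members' values was not tested. Among the macrophage markers Cd14 was lower in the RON TK-/- library (33.7 against 1010 FPKM in the WT library), as were Fcgr1 (3.58 against 26.6 FPKM in the WT library) and Mertk (9.68 against 32.5 FPKM in the WT library), and Itgam was higher (185 against 61.0 FPKM in the WT library).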

How the data were processed

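For each library the authors deposited a table of FPKM by RefSeq transcript (31580 rows, each with the status OK) under the column names of Cufflinks output, per the file headers. A second deposited column, coverage, is the average number of reads over a base, per the file headers. Per the labels' protocols, libraries came from total RNA with a TruSeq RNA kit as single reads of 50 bases. The submitters' processing notes name mm10 and DESeq, without role, and the aligner, annotation release and strand use are not stated there.

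FPKM values were summed over the rows of each symbol. The log2 ratio compared FPKM + 1 (pseudocount 1), RON TK-/- over WT. A gene counted as detected from 1 FPKM upwards in either library, and 2-fold was the threshold. Ratios within a library used no pseudocount. The pseudocount understates differences of low genes. Reads were estimated as coverage times length over 50 and used for 95% intervals and 1 alternative (exact binomial within a library, normal approximation on the log scale for the fold between libraries). Locus starts in the files count from 0, and 1 was added for printing. Transcripts were compared by local alignment (Biopython 1.88), and promoters came from the RefSeq table of GRCm38.p6. Counting past 2-fold was tested on simulated data.

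Members and lists were chosen with earlier results of these data known. Named genes were all 10 members, up to 4 detected genes per other list with the largest absolute log2 ratio, genes that complete a count of 5 or fewer, detected genes within 50 kb, and the 3 nearest in the plane of both values. Marker genes listed at 0 and genes outside that rule, among them Psmd10, Psme2b, the pseudogenes and the activation genes, were named after their values were seen. Each group is 1 library, so no p-value was computed. A few genes that the rule names are not reported here.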

Additional observations from a re-analysis of the deposited data

How the results depend on the processing

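Psmb8, Psmb9 and Psme2 stayed at least 2-fold lower in the RON TK-/- library under pseudocounts of 0.1 and 5, rescaling to a median ratio of 0, to an equal sum of FPKM per library or to the other 20S core genes, the most abundant row of each gene, and estimated reads. Their log2 ratios ran from -1.92 to -1.30, from -2.30 to -1.57 and from -1.92 to -1.32. Pomp (-0.51 to 0.05), Psmb7 (-0.35 to 0.22) and Psme3 (-0.18 to 0.40) changed sign with the scaling. The sum of Psme2 and Psme2b was chosen after seeing the data and stayed within the counting error of Psme2. As deposited, 1 member was higher and 4 were lower at 1.5-fold, and at 4-fold 0 were higher and 0 lower. Relative to the median of detected genes Psmb9 (-2.30) was past 4-fold lower. On that scale Psmb5 (0.06) was within 1.5-fold, and Psmb6 (-0.97) and Psmb10 (-0.87) were lower by more than 1.5-fold. Of all 11288 detected genes as deposited, 5519 were higher and 1408 lower at 1.5-fold, and 419 higher and 463 lower at 4-fold. At 2-fold, those higher numbered 983 with a pseudocount of 5 and 946 after median rescaling, and those lower 1627 after median rescaling. The Psmb9 to Psmb6 ratio in the WT library was 0.277 from estimated reads per length, and the cause was not tested. No paired analysis was possible because each group holds 1 library. At least 1060 estimated reads stood behind each member, and the spread between cultures could not be measured.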
